A study of Mus musculus with 24 samples.

Results

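RNA-Seq was compared between livers of lean mice treated with an antisense oligonucleotide against the long non-coding RNA (lncRNA) LincIRS2 and livers of lean mice treated with a scrambled oligonucleotide. The comparison took every row of the deposited table for this pair of groups and set the value of LincIRS2 LNA NCD over the value of Scr LNA NCD. It used 8 of the 24 livers of the series, 4 in each group, and 69905 assembled features. All mice were wild-type C57BL/6, 18 weeks of age by the sample labels, and received locked nucleic acid (LNA) oligonucleotides for 12 weeks. Both groups ate the control diet labelled NCD, in which carbohydrate supplied 62%, protein 27% and fat 11% of the energy. By the labels they differed in the LNA, which was directed against LincIRS2 in one group and was the negative control (Scr LNA) in the other. In its methods the paper describes older mice and a longer course of LNA than the labels. A figure legend of the paper gives a shorter course than the labels for livers of Scr LNA and Mafg LNA mice. The methods describe male C57BL/6N mice, which were randomly given insulin or saline intravenously before sacrifice. Which livers came from insulin-injected mice is not in the labels, so a difference in insulin exposure and the effect of the LNA cannot be told apart. A further 8 livers, of mice that ate a high-fat diet (HFD, 54% of energy from fat) and received Scr LNA or Mafg LNA, are set beside single genes below. The remaining 8 livers were not analysed here.

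Each group had 1 FPKM value for each feature (fragments scaled to transcript length and library size), pooled by the authors from 4 livers. No value per liver and no read count entered the comparison, so no SD, confidence interval or test could be given, the depth is unknown, and every ratio below is a description without a replicate check. Fewer cells of a type and less RNA per cell cannot be told apart in whole liver. A feature is an assembled transcript, the first listed of its locus, and its value is not the total of the gene whose symbol it carries. The tables give no strand, which was inferred here from the point on each chromosome at which consecutively numbered loci step back towards its start. By this inference, 62.8% of gene-matched features with a mean of at least 1 FPKM lay opposite to their gene and 37.1% on its own strand.

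LncRNAs are transcripts that do not encode a protein and can act on chromatin, on other RNAs or on proteins. LincIRS2, annotated as 4833411C07Rik, is encoded near Irs2, the gene of an adaptor that carries the signal of the insulin receptor to PI3 kinase and AKT in hepatocytes. Insulin acts through this route to restrain gluconeogenesis and to promote glycogen storage and lipid synthesis. LNA gapmers are short DNA oligonucleotides with locked bases at both ends, which pair with a transcript in the nucleus or cytoplasm and recruit RNase H to cut it. The comparison asks what the liver transcriptome looks like when LincIRS2 is targeted in the lean state.

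The LNA sequences are shown because the pairing of the oligonucleotide defines the comparison. Capitals in the transcript mark the stretch complementary to LincIRS2 LNA, with the transcript written in DNA letters, 5′ to 3′, and in the Ets1 stretch they mark the base that differs.
LincIRS2 LNA: ctcgattaacctgata
Scr LNA: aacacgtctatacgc
LincIRS2 transcript around the site: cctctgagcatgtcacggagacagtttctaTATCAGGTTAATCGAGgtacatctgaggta
Ets1 site: tatcaggttaatGgag
The 16 bases lie on the plus strand at chr8:10900491-10900506 (GRCm38), in exon 2 of both annotated LincIRS2 transcripts (GENCODE vM21), and end at the last base of that exon. They occupy positions 457 to 472 of the 1331-nt transcript 4833411C07Rik-201 and positions 442 to 457 of the 1568-nt transcript 4833411C07Rik-202. Matches were sought in annotated transcript sequences only, so introns outside them were not searched. In these transcripts no other gene held a perfect match to LincIRS2 LNA. A single gene, Ets1, which encodes a transcription factor, held a site with 1 mismatch, written C13G when positions are counted from the 5′ end of the target site. With 2 mismatches, transcripts of 8 genes matched LincIRS2 LNA, of which 2 passed the filter on low values described below and neither differed by 1.5-fold. Scr LNA matched no gene with up to 1 mismatch and 14 genes with 2 mismatches, of which 3 passed the filter and none differed by 1.5-fold, with log2 ratios of 0.36 to 0.41.

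LincIRS2 was measured on its own strand in the locus chr8:10869626-10903893, within which the annotated gene spans 10899922 to 10903893. Its feature stood at 0.558 FPKM in Scr LNA NCD and 0.345 FPKM in LincIRS2 LNA NCD, 38.1% lower (log2 ratio −0.69). The same feature had 0.213 FPKM in Scr LNA HFD and 0.483 FPKM in Mafg LNA HFD. The targeted lncRNA was thus lower in the group that received its LNA, at a level under the 1 FPKM asked of other features. Among 5941 features with a mean of 0.3 to 0.7 FPKM, 9.36% (556) had a log2 ratio at least as low, so a difference of this size was not rare at this level. With a pseudocount of 1 FPKM the log2 ratio was −0.21. Irs2 itself had 0.125 and 0.149 FPKM (log2 0.25) and Irs1, the gene of a related insulin receptor substrate, had 0.106 and 0.0917 FPKM (log2 −0.21) in Scr LNA NCD and LincIRS2 LNA NCD. Neither insulin receptor substrate gene reached 1.5-fold. Ets1, the gene with the site of 1 mismatch and named after its values were seen, had 0.332 and 0.212 FPKM (log2 −0.65), also under the filter, with 0.334 FPKM in Scr LNA HFD and 0.205 FPKM in Mafg LNA HFD.

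Around LincIRS2, 39 features lay within 500 kb, of which 14 were listed at 0 in both groups and 10 had a mean of at least 0.1 FPKM with both values above 0. The locus of LincIRS2 was shared by features of other lncRNAs. B930025P03Rik had 1.47 FPKM in each group, from a feature on the strand of LincIRS2 and opposite to the B930025P03Rik gene. Gm2814 had 0.841 FPKM in Scr LNA NCD and 0.574 FPKM in LincIRS2 LNA NCD, and Gm45044 had 1.16 and 1.41 FPKM. Neither of these neighbours differed by 1.5-fold. Of the 10 features, 2 were more than 1.5-fold lower, LincIRS2 and an unmatched feature of 0.141 and 0.0647 FPKM. Another 1 was higher, 9530052E02Rik at the Irs2 locus with 0.104 and 0.207 FPKM. The share of all features past 1.5-fold at a minimum of 0.1 FPKM was not computed. Among 5941 features with a mean of 0.3 to 0.7 FPKM, the 5th and 95th percentiles of the log2 ratio were −0.99 and 0.94. Both percentiles lie past 1.5-fold, so differences of that size were not rare at that level.

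**Figure D1:**
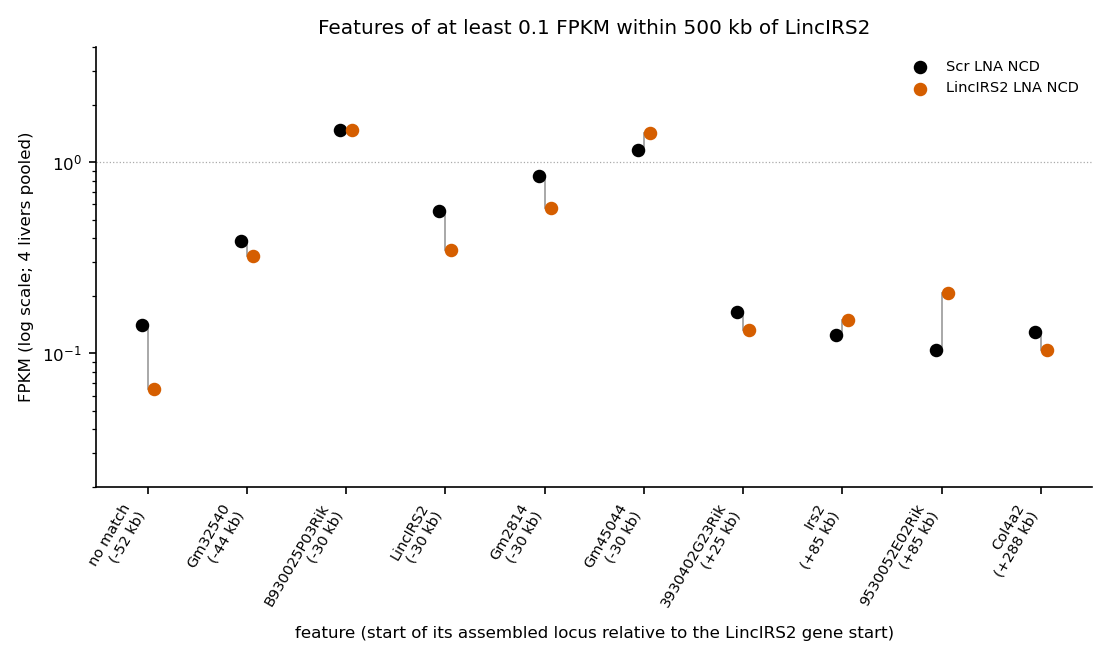
FPKM (log scale) of the 10 features with a mean of at least 0.1 FPKM within 500 kb of LincIRS2, ordered by the distance of their assembled locus from the LincIRS2 gene start in kb. Black points are Scr LNA NCD and orange points LincIRS2 LNA NCD, each 1 pooled value of 4 livers. LincIRS2 stood at 0.558 and 0.345 FPKM, while B930025P03Rik stood at 1.47 in both.

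Across the transcriptome the groups were close. Of the 69905 features, 8329 had a mean of at least 1 FPKM, and 8254 of these had both values above 0. The log2 ratio had a median of 0.02 and quartiles of −0.11 and 0.14, and 94.1% of the features lay within 1.5-fold. At least 2-fold higher values with LincIRS2 LNA were listed for 89 features (1.08%) and at least 2-fold lower values for 88 (1.07%). Counted with 1 feature for each of 6361 genes, 155 genes (2.44%) were at least 1.5-fold higher and 180 (2.83%) at least 1.5-fold lower. A gene that passed through the group in which it was high had to differ, and named genes with under 1 FPKM in a group passed in this way. A further 75 features of this level were listed at 0 in a group, 35 in Scr LNA NCD and 40 in LincIRS2 LNA NCD, and received no ratio. The 10 highest features, 38 to 350 bp long and 9 of them without an Ensembl match, took 89.3% (Scr LNA NCD) and 91.9% (LincIRS2 LNA NCD) of all FPKM. Scaling both groups to the same sum without them moved all log2 ratios by 0.066.

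Features past 2-fold were most frequent among those without an Ensembl match. Of 300 such features 6.33% were higher and 5.33% lower, against 0.692% and 0.858% of 6647 protein-coding features and 0.823% in each direction of 486 lncRNA features. Processed pseudogenes, copies of spliced mRNAs, had 2.43% higher and 0.541% lower of 370. By level, 6.21% of 161 features of at least 100 FPKM were higher and 1.86% lower, against 1.04% and 1.26% of 5072 features between 1 and 3 FPKM.

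**Figure D2:**
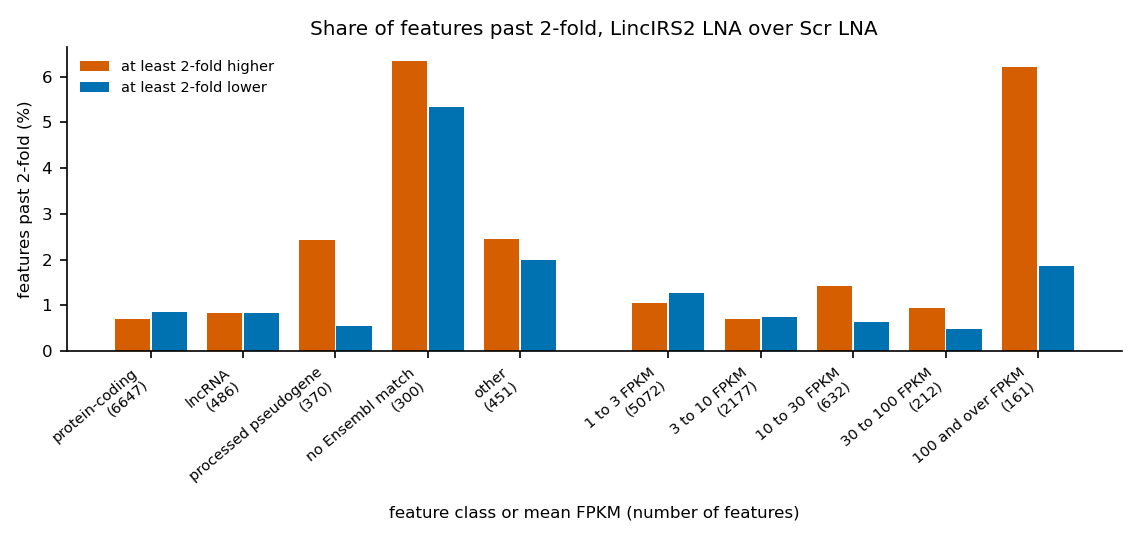
Share of features (%) at least 2-fold higher (orange) or lower (blue) with LincIRS2 LNA, by feature class on the left and by mean FPKM on the right, with the number of features below each pair of bars. Features without an Ensembl match (6.33% and 5.33%) and features of at least 100 FPKM (6.21% higher) stood above the other classes.

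**Figure D3:**
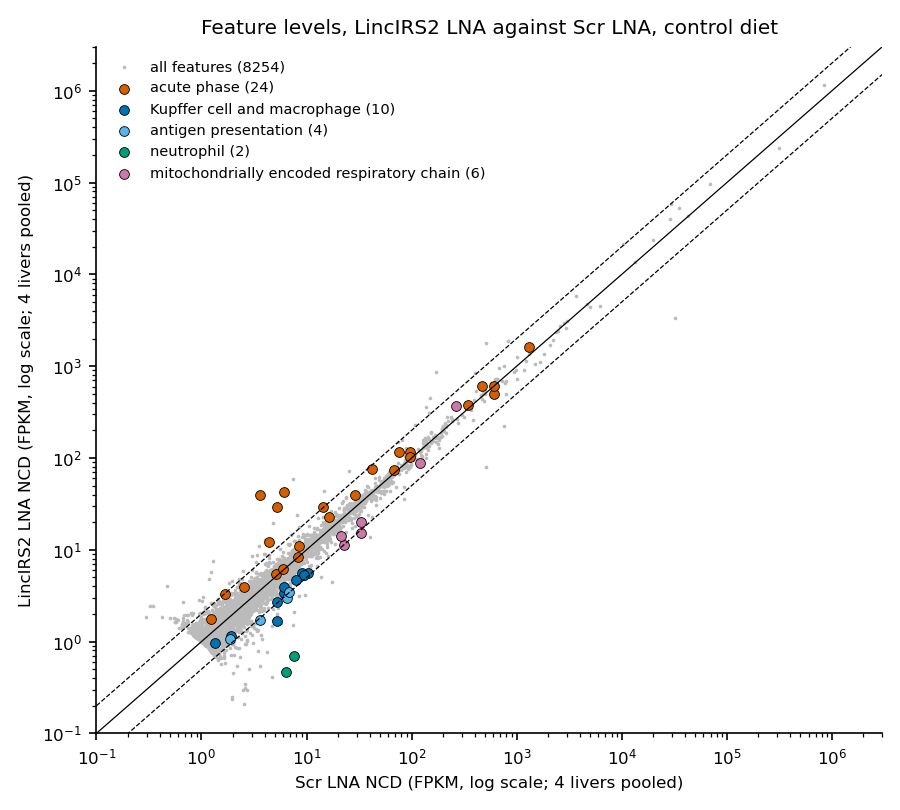
FPKM of 8254 features in LincIRS2 LNA NCD against Scr LNA NCD, both on log scales, each point a feature with 4 livers pooled on each axis. The solid line marks equal values and dashed lines 2-fold, 4 features lie below the axes, and coloured points show gene lists with their number of members. Saa1, Saa2, Mt1 and Mt2 lay above the upper dashed line and the neutrophil genes S100a8 and S100a9 below the lower one.

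Acute phase genes, which hepatocytes express under the control of interleukin-6, STAT3 and C/EBP factors during inflammation, were higher with LincIRS2 LNA. Of 29 genes in this list 24 passed the filter, each with at least 1 FPKM in both groups. Of these, 9 were at least 1.5-fold higher and none lower, beside 2.44% and 2.83% of all genes. The same shares of all genes apply to the counts of the lists below. This list and the others were chosen with earlier results of these data known, so their counts are descriptions. Their median log2 ratio was 0.41, against 0.02 over all genes, and 22 of the 24 ratios lay above 0.

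The serum amyloid A genes encode apolipoproteins of inflammation. Saa2 (chr7:46751760-46754705) had 3.63 FPKM in Scr LNA NCD and 39.2 FPKM in LincIRS2 LNA NCD, a 10.8-fold higher level. Saa1 (chr7:46738958-46743244) had 5.27 and 29.4 FPKM, 5.58-fold higher, and Saa4, the constitutive member, had 42.2 and 75.6 FPKM. Saa3, which is expressed outside hepatocytes too, had 1.22 and 1.76 FPKM and did not reach 1.5-fold. Because these genes are close paralogs, the split of reads between them is uncertain. Their features summed to a 2.79-fold higher value with LincIRS2 LNA. On the genes' own strands the features of Saa1 (0.165 and 0.825 FPKM) and Saa2 (0.0231 and 0.923 FPKM) were lower in level and differed in the same direction.

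Metallothioneins bind zinc and copper and are induced by metals, glucocorticoids and inflammation. Mt2 (chr8:94170748-94173568) had 6.12 and 43.0 FPKM, 7.02-fold higher with LincIRS2 LNA, on its own strand. Mt1 had 4.4 and 12.1 FPKM, on the opposite strand. Both metallothionein features were higher in LincIRS2 LNA NCD than in the HFD groups, where Mt2 had 15.2 FPKM with Scr LNA and 9.75 FPKM with Mafg LNA.

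Carrier and defence proteins of plasma made up the other members. Orm2, which encodes an orosomucoid, had 14.5 and 29.0 FPKM (log2 1.00). Lcn2, which encodes the siderophore-binding lipocalin 2, had 1.69 and 3.32 FPKM (log2 0.98). Apcs, the gene of serum amyloid P, had 75.7 and 117 FPKM (log2 0.62). The neutrophil-attracting chemokine gene Cxcl1 had 2.55 and 3.93 FPKM (log2 0.63). Most other members differed less. Crp (16.2 and 22.9 FPKM), Serpina3n (29.0 and 39.4 FPKM) and the fibrinogen gene Fga (471 and 612 FPKM) were higher by less than 1.5-fold. Hamp, which encodes the iron hormone hepcidin, had 606 and 501 FPKM, and Serpina3k had 604 FPKM in both. Of the 9 genes past 1.5-fold, 8 had their highest value of the 4 groups in LincIRS2 LNA NCD, and the lowest value lay in Scr LNA NCD for 4 and in Scr LNA HFD for 5. By the inferred strand, 3 of the 9 values came from the gene's own strand, and 7 of the 9 from loci with 1 assembled transcript.

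Promoter sequences are shown for acute phase and metallothionein genes of large ratio, chosen among the 9 members past 1.5-fold. They are RefSeq sequences of GRCm38.p6, 300 bases each, most of them upstream of the annotated gene start, in the direction of the gene. Capitals mark TTGCNNAA, a form of the C/EBP site, in Saa2 and Orm2, and TGCGCNC or TGCACNC, the core of the metal response element, in Mt1 and Mt2, each searched on both strands. The motifs were chosen after the values were seen.
Saa2 promoter: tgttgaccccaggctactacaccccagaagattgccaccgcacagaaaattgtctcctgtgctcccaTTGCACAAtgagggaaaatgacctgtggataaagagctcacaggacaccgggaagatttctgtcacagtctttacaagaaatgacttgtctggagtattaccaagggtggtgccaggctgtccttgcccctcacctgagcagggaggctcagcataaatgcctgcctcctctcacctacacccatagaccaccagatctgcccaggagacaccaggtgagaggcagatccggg
Orm2 promoter: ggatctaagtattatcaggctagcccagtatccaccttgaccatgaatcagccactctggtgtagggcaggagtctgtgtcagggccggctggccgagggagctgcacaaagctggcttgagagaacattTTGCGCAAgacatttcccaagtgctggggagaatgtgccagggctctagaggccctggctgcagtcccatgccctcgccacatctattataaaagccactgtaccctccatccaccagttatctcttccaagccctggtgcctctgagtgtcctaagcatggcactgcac
Mt1 promoter: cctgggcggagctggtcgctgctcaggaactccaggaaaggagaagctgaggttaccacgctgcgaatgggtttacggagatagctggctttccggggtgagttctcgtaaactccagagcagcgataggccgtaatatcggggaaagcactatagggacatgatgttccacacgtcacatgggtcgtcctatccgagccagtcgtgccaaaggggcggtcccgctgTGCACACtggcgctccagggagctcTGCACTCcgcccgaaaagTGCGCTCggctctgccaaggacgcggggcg
Mt2 promoter: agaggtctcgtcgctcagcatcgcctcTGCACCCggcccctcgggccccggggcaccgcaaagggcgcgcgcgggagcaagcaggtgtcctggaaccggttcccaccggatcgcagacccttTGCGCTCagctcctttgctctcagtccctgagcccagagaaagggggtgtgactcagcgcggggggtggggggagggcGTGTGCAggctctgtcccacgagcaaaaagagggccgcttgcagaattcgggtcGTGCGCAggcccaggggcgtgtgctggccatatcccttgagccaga
All 9 acute phase genes past 1.5-fold had a promoter sequence, and 6 held TTGCNNAA (Lcn2, Mt2, Orm2, Saa1, Saa2 and Saa4), a motif found in 10.8% of 32851 RefSeq promoters of this length. The metal response element core was held by 2 of the 9, Mt1 with 3 matches and Mt2 with 4, against 25.7% of all promoters with at least 1 match and 1.97% with 3 or more. Counted in bases from the annotated gene start, the Mt1 matches at 2 to 8 and 20 to 26 lay downstream of it. The Mt2 match at 4 to 10 lay downstream too. A match to these letters is a description of the window and was not tested as a binding site.

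Markers of resident and recruited immune cells were lower with LincIRS2 LNA, opposite in direction to the acute phase genes of hepatocytes. Of 10 Kupffer cell and macrophage markers that passed the filter, 9 were at least 1.5-fold lower and none higher, beside 2.83% and 2.44% of all genes. Their median log2 ratio was −0.78, and 9 of the 10 had at least 1 FPKM in both groups. Summed over the 14 markers with a feature, the level was 65.4 FPKM in Scr LNA NCD and 36.4 FPKM in LincIRS2 LNA NCD, a ratio of 0.556. Csf1r, the receptor of the macrophage growth factor CSF1, had 5.26 and 1.67 FPKM (log2 −1.65). The complement C1q subunit genes C1qa (10.4 and 5.60 FPKM), C1qb (5.23 and 2.73 FPKM) and C1qc (6.13 and 3.39 FPKM) were lower by similar ratios. Genes of resident Kupffer cells were lower too, among them the lectin gene Clec4f (6.10 and 3.95 FPKM), the complement receptor gene Vsig4 (7.97 and 4.70 FPKM) and Cd5l (9.04 and 5.53 FPKM). Lyz2, which encodes lysozyme, had 9.39 and 5.37 FPKM, and the haemoglobin scavenger receptor gene Cd163 had 1.90 and 1.16 FPKM. Cd68 had 1.36 and 0.965 FPKM and did not reach 1.5-fold. By the inferred strand, 2 of the 9 values past 1.5-fold came from the gene's own strand, and 7 from loci with 1 assembled transcript. The own-strand features of C1qa, Clec4f and Cd5l were near 0, and that of Cd163 went the other way (0.0252 and 0.0584 FPKM). With own-strand features only, 5 markers passed the filter and 4 were at least 1.5-fold lower.

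The levels of these markers in the HFD groups are set beside the pair. Of the 10 markers, 8 had the highest value of the 4 groups in Scr LNA NCD, and none had it in LincIRS2 LNA NCD. For C1qa, Scr LNA HFD had 5.99 FPKM and Mafg LNA HFD 7.93 FPKM, so LincIRS2 LNA NCD lay close to Scr LNA HFD. The same was seen for C1qc, with 3.39 FPKM in Scr LNA HFD as in LincIRS2 LNA NCD. Scr LNA NCD is the control of this comparison, and its pooled value cannot show whether 1 liver or all 4 carried the higher marker level.

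Antigen presentation genes of dendritic cells, B cells and macrophages were lower as well. All 4 that passed the filter were at least 1.5-fold lower, beside 2.83% of all genes, with a median log2 ratio of −1.02. The MHC class II genes H2-Aa (6.56 and 3.0 FPKM) and H2-Eb1 (6.84 and 3.47 FPKM) and the invariant chain gene Cd74 (3.59 and 1.72 FPKM) were among them. Ctss, which encodes the protease that trims the invariant chain, had 1.85 and 1.06 FPKM. Of the 4 values, 2 came from the gene's own strand, and the own-strand feature of H2-Aa was near 0 in both groups. In the HFD groups, which share no liver with this pair, the median log2 ratio of Mafg LNA over Scr LNA was 1.54 for these 4 genes and 0.59 for the 10 macrophage markers.

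Of 10 neutrophil genes 2 passed the filter, with a median log2 ratio of −3.61. S100a8, a subunit gene of the calcium-binding protein calprotectin, had 7.6 FPKM in Scr LNA NCD and 0.702 FPKM in LincIRS2 LNA NCD (log2 −3.44). Its partner S100a9 had 6.38 and 0.464 FPKM (log2 −3.78). Both passed the filter only through Scr LNA NCD, so their ratios had to lie below 0. No neutrophil gene passed when 1 FPKM was asked in each group. Levels in Scr LNA HFD were 0.643 FPKM for S100a8 and 0.648 FPKM for S100a9, close to LincIRS2 LNA NCD, and those in Mafg LNA HFD were 2.25 and 2.95 FPKM. Other features of the same genes differed in the same direction, with 2.71 and 0.299 FPKM on the opposite strand of S100a8. The granule protein genes Camp and Ngp stood at 3.49 and 1.92 FPKM in Scr LNA NCD, and in LincIRS2 LNA NCD Camp was listed at 0 and Ngp at 0.0130 FPKM. The defining neutrophil marker Ly6g stood at 0.00894 FPKM and 0. Over 10 neutrophil markers the summed FPKM was 21.1 in Scr LNA NCD, 1.6 in LincIRS2 LNA NCD, 1.78 in Scr LNA HFD and 7.01 in Mafg LNA HFD.

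**Figure D4:**
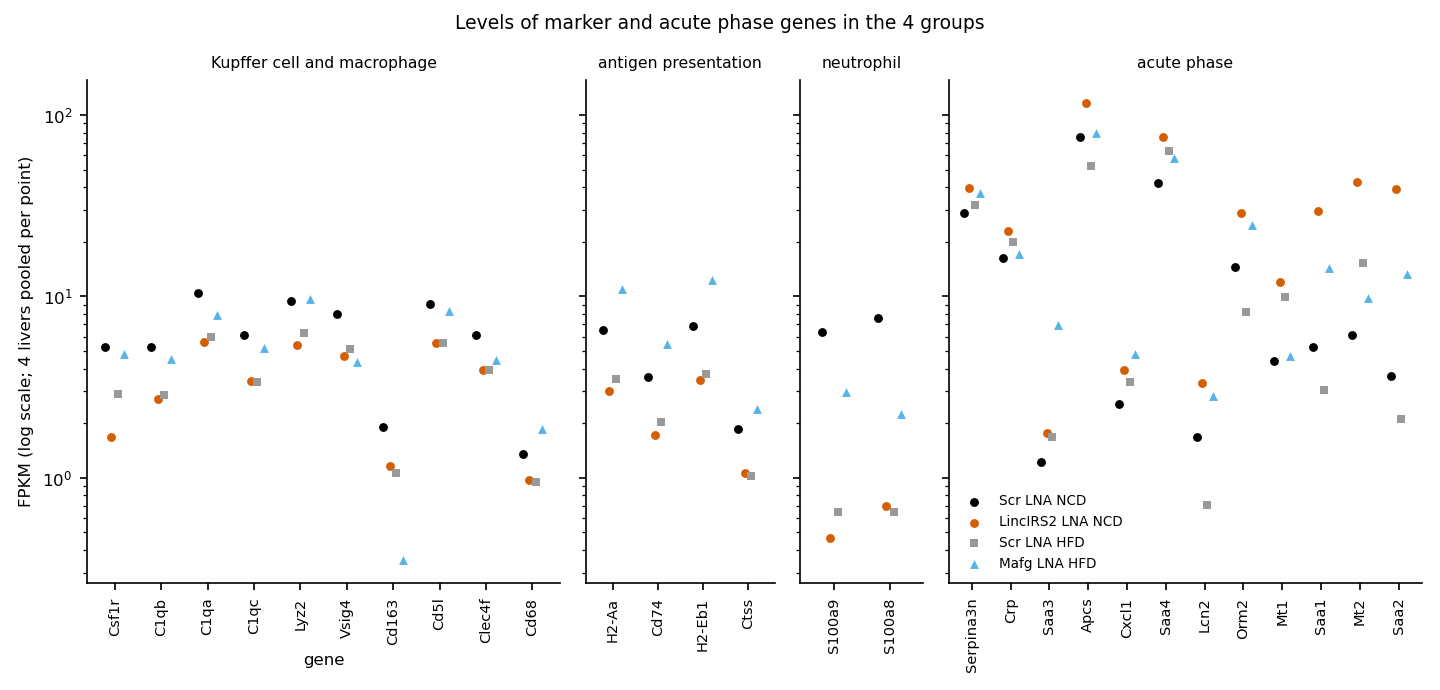
FPKM (log scale) of the Kupffer cell and macrophage, antigen presentation and neutrophil genes that passed the filter and of the 12 acute phase genes of largest ratio, with 4 livers pooled in each point. Black circles are Scr LNA NCD, orange circles LincIRS2 LNA NCD, grey squares Scr LNA HFD and blue triangles Mafg LNA HFD. S100a8 stood at 7.6 in Scr LNA NCD against 0.702, 0.643 and 2.25 in the other groups, and Saa2 at 39.2 in LincIRS2 LNA NCD against 3.63, 2.12 and 13.4.

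Few markers of other blood and liver cells were past 1.5-fold. Of infiltrating myeloid markers 2 passed, Ccl6 (3.98 and 2.64 FPKM), which was past 1.5-fold, and Laptm5 (2.45 and 1.76 FPKM). No T, NK, B or plasma cell marker passed, although their summed FPKM was lower with LincIRS2 LNA, at 1.73 and 0.974 for T and NK cells (ratio 0.563) and 1.31 and 0.611 for B and plasma cells (ratio 0.467). Endothelial markers had 1 of 12 members past 1.5-fold, Eng, which encodes endoglin (1.93 and 1.15 FPKM), and a median log2 ratio of −0.21. Stellate cell and fibroblast markers had none of 8 past 1.5-fold and a median of 0.03, and erythroid markers none of 4 with a median of −0.09. Hepatocyte markers had none of 8 past 1.5-fold and a median of 0.05, from Apoa1 (1499 and 1067 FPKM) to Hpx (68.3 and 74.5 FPKM) and Cyp3a11 (11.8 and 12.9 FPKM). The feature carrying the name of albumin was listed at 0 in Scr LNA NCD and both HFD groups and at 2663 FPKM in LincIRS2 LNA NCD, so it received no ratio. Cholangiocyte and exocrine pancreas markers had 1 member each that passed, neither past 1.5-fold, and no adipocyte marker passed, with summed FPKM of 1.19 and 0.131. The part of immune cell content in the differences of the acute phase genes or of any other list was not tested.

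Insulin signalling genes belong to the route in which IRS2 acts. Of 32 genes 19 passed the filter, 1 was at least 1.5-fold higher, 1 lower, and the median log2 ratio was 0.04, which turned to −0.32 over the 6 members with an own-strand feature that passed and to −0.06 with a minimum mean of 5 FPKM. Trib3, a pseudokinase gene whose product binds AKT, had 1.04 and 1.64 FPKM (log2 0.66). Igfbp2, which encodes an insulin-like growth factor binding protein, had 29.1 and 18.0 FPKM (log2 −0.69). Another Igfbp2 feature, on the opposite strand, went the other way with 2.41 and 3.35 FPKM. Summed over its features Igfbp2 had a log2 ratio of −0.57, under 1.5-fold, and with such sums the list held no lower member. None of the kinase genes that passed reached 1.5-fold. Akt1 had 1.53 and 1.59 FPKM on the opposite strand, and its own-strand feature had 0.331 and 0.213 FPKM (log2 −0.63). Akt2 had 3.62 and 2.64 FPKM (log2 −0.46), beyond the 5th percentile of all features (log2 −0.45), and Mtor had 2.35 and 2.40 FPKM. Igfbp1, which insulin represses through FOXO1, had 5.80 and 5.25 FPKM.

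Metabolic genes downstream of insulin had few members past 1.5-fold. Of 24 gluconeogenesis and fasting response genes 12 passed the filter and 1 was past 1.5-fold, the aspartate aminotransferase gene Got1 (1.3 and 2.51 FPKM), with a list median of 0.07. G6pc, which encodes the last enzyme of glucose release, had 21.0 and 20.2 FPKM, Fbp1 had 18.3 and 20.1 FPKM and the coactivator gene Ppargc1a 1.28 and 1.13 FPKM. Pck1, which encodes the enzyme that commits oxaloacetate to gluconeogenesis, was under the filter, with 0.108 and 0.276 FPKM for 1 of 12 assembled transcripts. Glucose uptake and glycogen genes had none of 10 past 1.5-fold and a median of 0.08, with glycogen synthase (Gys2) at 52.5 and 55.3 FPKM. Of 13 genes of de novo lipogenesis none was past 1.5-fold, with a median of 0.06. The fatty acid synthase gene Fasn had 5.73 and 5.38 FPKM, the desaturase gene Scd1 2966 and 2607 FPKM, and the regulator gene Srebf1 1.36 and 1.77 FPKM. In cholesterol synthesis and uptake 1 of 6 was past 1.5-fold, Hmgcs1, which encodes HMG-CoA synthase (1.07 and 2.35 FPKM).

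The lists of fatty acid oxidation and bile acids held genes past 1.5-fold in both directions, and that of drug metabolism held 1 lower gene. Among 18 PPARA and fatty acid oxidation genes, Cyp4a14 (1.26 and 2.2 FPKM), a fatty acid hydroxylase gene, and Vnn1 (2.98 and 4.55 FPKM) were higher and the thioesterase gene Acot1 (1.88 and 1.24 FPKM) was lower, with a median of 0.04. Among 15 bile acid genes, Cyp7a1, whose enzyme starts the main route from cholesterol to bile acids, had 8.80 and 5.61 FPKM, and Nr0b2, which encodes the repressor SHP that acts on Cyp7a1, had 1.15 and 2.16 FPKM. The uptake transporter gene Slco1b2 had 0.000560 and 2.00 FPKM, an estimate near 0 in Scr LNA NCD for a locus with several assembled transcripts, and passed only through LincIRS2 LNA NCD. Of 14 xenobiotic cytochrome and receptor genes 1 was past 1.5-fold, Cyp2c39 (2.96 and 1.61 FPKM), and Cyp3a11 and Cyp2e1 (141 and 129 FPKM) were not. Socs2, the growth hormone feedback gene, had 2.85 and 1.63 FPKM and was the 1 of 13 male-biased and growth hormone regulated genes past 1.5-fold. No female-biased gene passed the filter.

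The lists of chaperones, NRF2 targets, immediate early genes and the integrated stress response held 1 or 2 members each past 1.5-fold. Of 11 chaperone and folding genes 2 were at least 1.5-fold higher, beside 2.44% of all genes. They were Sdf2l1 (22.2 and 34.4 FPKM) and Hyou1 (9.15 and 13.8 FPKM). Of the 11 ratios 9 lay above 0, with a median of 0.27. The disulfide isomerase gene Pdia3 had 88.5 and 128 FPKM, while Xbp1, the transcription factor gene of this response, had 29.3 and 26.9 FPKM. In the NRF2 and glutathione list of 10, Osgin1 (0.668 and 1.82 FPKM) was higher, passing through LincIRS2 LNA NCD, and Gstm3 (6.09 and 3.77 FPKM) lower. Among 5 immediate early genes Gadd45g had 5.22 and 2.01 FPKM (log2 −1.38), and the phosphatase gene Dusp1 had 5.0 and 3.55 FPKM. Trib3 was also the 1 of 6 integrated stress response genes past 1.5-fold, beside Ddit3 at 2.15 and 2.12 FPKM. Periportal genes had 1 of 7, the E-cadherin gene Cdh1 (1.23 and 2.6 FPKM), and pericentral genes none of 9.

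Interferon response genes, in contrast to the acute phase genes, had none of 17 past 1.5-fold and a median of −0.03. Isg15 had 1.95 and 2.05 FPKM and Ifit3 3.09 and 3.11 FPKM. The lists of circadian clock genes, p53 targets, proliferation, lipid droplet and PPARG targets, urea cycle and amino acid genes, small MAF partners and other named lncRNAs also had no member past 1.5-fold. In all, 12 of the pathway and lncRNA lists with a member that passed had none past 1.5-fold.

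**Figure D5:**
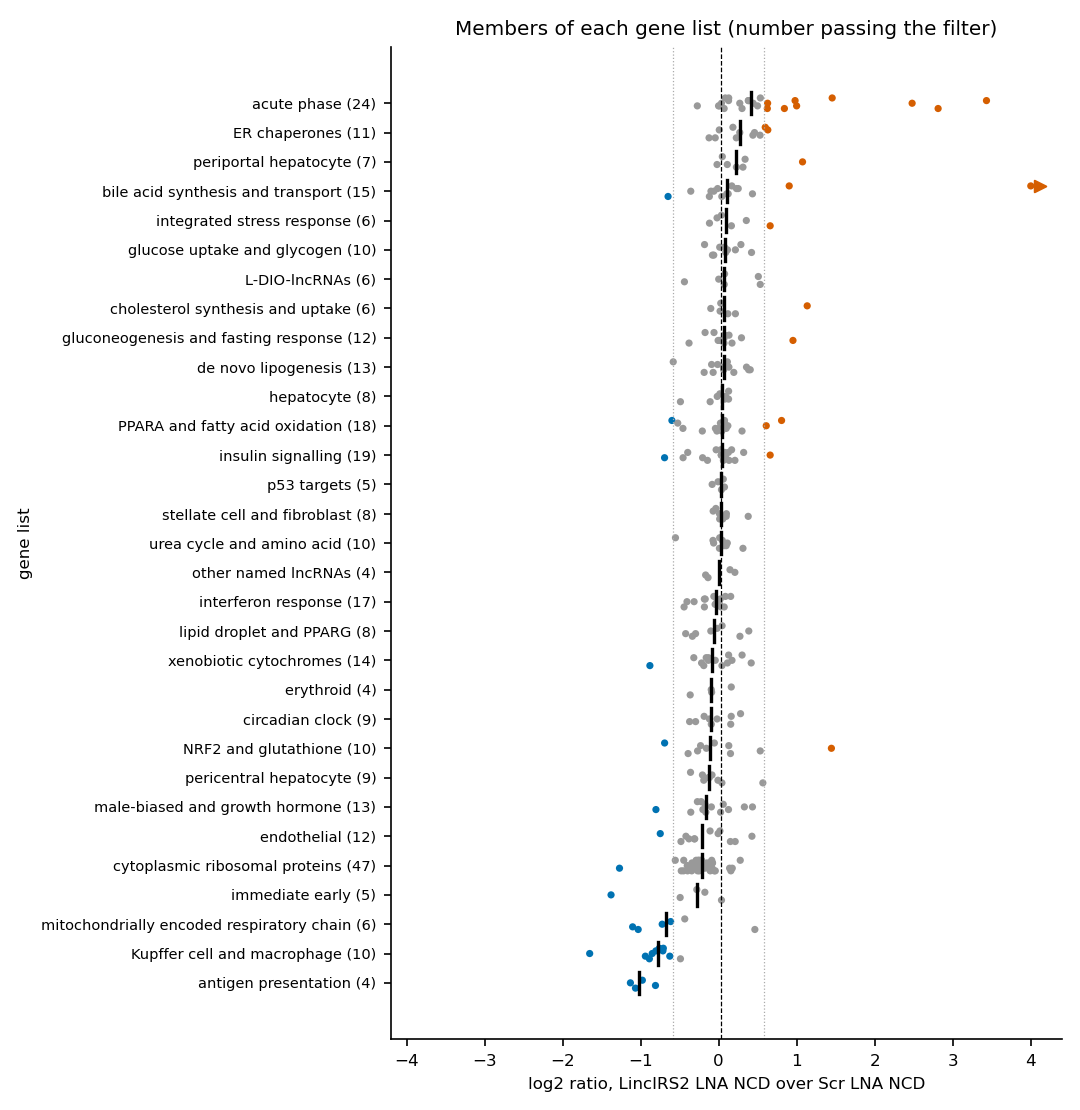
Log2 ratio of LincIRS2 LNA NCD over Scr LNA NCD for members of 31 gene lists with at least 4 members that passed the filter, ordered by the list median (black bar). Dotted lines mark 1.5-fold, the dashed line the median of all genes (0.02), orange and blue points members past 1.5-fold, and the arrow Slco1b2 at 11.80, beyond the axis. The acute phase list (median 0.41) stood at the top and the macrophage (−0.78) and antigen presentation (−1.02) lists at the bottom.

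Transcripts of the mitochondrial genome, which encodes subunits of the respiratory chain, were lower for most of the genes that passed the filter. Of 13 genes in this list 10 had a feature, and 3 of these were listed at 0 in a group. The summed FPKM of the 10 was 495 and 514, with mt-Nd6 the highest. Of 6 that passed the filter 4 were at least 1.5-fold lower and none higher, beside 2.83% and 2.44% of all genes. Their median log2 ratio was −0.67. The cytochrome b gene mt-Cytb had 32.7 and 15.2 FPKM, the oxidase subunit gene mt-Co1 22.9 and 11.2 FPKM, mt-Nd1 33.3 and 20.2 FPKM and mt-Nd2 21.4 and 14 FPKM. The complex I subunit gene mt-Nd6, encoded on the other strand of the mitochondrial genome, had 265 and 365 FPKM, higher by less than 1.5-fold. Cytoplasmic ribosomal protein genes differed by small ratios, mostly to the lower side. Of 47 that passed, 43 had a ratio below 0 and 1 was past 1.5-fold, Rpl24 (3.29 and 1.37 FPKM), with a median of −0.22. Rpl36 had 181 and 130 FPKM and Rps14 138 and 101 FPKM. In the 4 groups, 43 of these 47 genes had their highest value in Scr LNA NCD.

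The protein-coding genes of largest ratio, besides Slco1b2 and the acute phase genes, were Mup11 (7.45 and 59.2 FPKM), Derl3 (0.322 and 2.41 FPKM), Capns1 (0.294 and 1.86 FPKM), Psme2 (1.24 and 5.73 FPKM), Fkbp2 (0.421 and 1.86 FPKM), Slc38a3 (1.19 and 4.80 FPKM), Cox7b (3.98 and 12.8 FPKM) and Moxd1 (3.56 and 10.9 FPKM). Derl3 encodes a factor of protein degradation at the endoplasmic reticulum, Psme2 a proteasome activator subunit and Slc38a3 a glutamine transporter. Several of these loci had many assembled transcripts, with 21 for Psme2 and 12 for Capns1, so the listed value is that of an isoform. Derl3, Capns1 and Fkbp2 passed the filter only through LincIRS2 LNA NCD. The Slc38a3 value came from the strand opposite to the gene. On the own strand Slc38a3 went the other way, with 1.10 and 0.787 FPKM (log2 −0.48). Moxd1, with 1 assembled transcript on the opposite strand, had 0.0162 and 0.0143 FPKM in the HFD groups.

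The protein-coding genes of smallest ratio were low in level, with a highest mean of 4.82 FPKM. S100a9, S100a8 and Csf1r were among them. Slamf6, a receptor gene of lymphocytes, had 2.61 and 0.309 FPKM and Ppbp, a platelet chemokine gene, 2.06 and 0.710 FPKM, both on the strand opposite to the gene. On the own strand Ppbp had 0.274 and 0.202 FPKM, and Slamf6 had 0.00934 FPKM in Scr LNA NCD and a value near 0 in LincIRS2 LNA NCD. The complement protease gene C1s1 had 2.83 and 0.499 FPKM, the flavin monooxygenase gene Fmo5 7.56 and 2.08 FPKM and the chromatin remodeller gene Arid1b 2.31 and 0.681 FPKM. The Arid1b value is that of 1 of 9 assembled transcripts on its own strand. The opposite-strand feature of Arid1b had 1.16 and 1.21 FPKM, and summed over its features the log2 ratio was −0.87. Fabp7 (1.68 and 0.581 FPKM), Slc45a1 (4.21 and 0.766 FPKM), Gm10801 (1.93 and 0.249 FPKM) and Gm10800 (3.48 and 0.790 FPKM) completed the 12. Of these, Fmo5 and Csf1r had at least 1 FPKM in both groups, and the others passed only through Scr LNA NCD. Among the 24 genes of largest and smallest ratio, 8 had 1 assembled transcript.

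Among 342 protein-coding genes with a mean of at least 20 FPKM, Saa2, Mup11 and Mt2 had the largest ratios. They were followed by the major urinary protein genes Mup17 (149 and 446 FPKM) and Mup15 (136 and 357 FPKM). The antitrypsin genes Serpina1b (145 and 313 FPKM) and Serpina1d (108 and 228 FPKM) and the apolipoprotein gene Apoa4 (14.2 and 28.8 FPKM) followed. The Mup and Serpina1 families consist of near-identical genes whose reads are uncertain to assign. Of 11 Mup features that passed 5 were at least 1.5-fold higher, beside 2.44% of all genes. Of these 5, Mup18 (0.839 and 1.35 FPKM) and Mup19 (0.666 and 1.46 FPKM) passed only through LincIRS2 LNA NCD. The most abundant, Mup3 (4944 and 4378 FPKM) and Mup20 (2218 and 1927 FPKM), were not higher. The summed FPKM of the family was 0.961 times that of Scr LNA NCD. The Serpina1 features summed to 1.27 times the control level. The smallest ratios at this level belonged to mt-Cytb, mt-Nd1 and Igfbp2, followed by the actin-binding thymosin gene Tmsb4x (31.8 and 20.9 FPKM). Glud1 (45.6 and 31.0 FPKM), Crot (62.6 and 43.5 FPKM), Apoa1 and Rpl36 were lower by less than 1.5-fold.

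LncRNA genes had few members past 2-fold, and these were low in level with the exception of a short feature. AC161763.1, at 73.5 and 148 FPKM, lay on the opposite strand of a 168-bp locus on chromosome 7. Gm15318 (0.662 and 1.53 FPKM), AW112010 (3.99 and 9.0 FPKM) and Gm31121 (1.31 and 2.64 FPKM) were the other lncRNA genes of largest ratio. AW112010 turned to a log2 ratio of −0.038 when features of loci with several assembled transcripts were left out. AL732506.1 (2.01 and 0.000375 FPKM, with the second value near 0), Gm6135 (1.97 and 0.236 FPKM), Gm30211 (2.11 and 0.873 FPKM) and Gm17041 (4.82 and 2.27 FPKM) had the smallest ratios. The Gm6135 value came from the opposite strand. Its other features were lower in level and went the other way, with 0.399 and 0.626 FPKM on that strand and 0.201 and 0.492 FPKM on the own strand. Gm15318 passed the filter only through LincIRS2 LNA NCD, and AL732506.1, Gm6135 and Gm30211 only through Scr LNA NCD.

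The L-DIO-lncRNAs, liver lncRNAs that the study selected in obese mice of another cohort and to which LincIRS2 belongs, differed in both directions. Of 7, the 6 besides LincIRS2 passed the filter and none was past 1.5-fold, with a median log2 ratio of 0.07. On the own strand 1 of 5 was past 1.5-fold and the median was 0.51. Gm8883 (1.56 and 2.26 FPKM) and C730036E19Rik (1.88 and 2.67 FPKM) had the highest ratios, log2 0.53 and 0.51, beyond the 95th percentile of all features (0.44), and 9030622O22Rik (3.19 and 2.35 FPKM) the lowest, although its own-strand feature turned to a log2 ratio of 0.78. 9030616G12Rik had 4.48 and 4.71 FPKM, with a log2 ratio of −0.51 on its own strand, and Gm10319 13.6 and 14.3 FPKM.

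Of 40 features without an Ensembl match and with a mean of at least 20 FPKM, the widest differences belonged to short loci. The feature at chrX:4136295-4136375 had 169 and 871 FPKM and that at chr3:15852825-15852901 506 and 1794 FPKM. The feature at chr12:7308951-7309033 had 512 and 80.4 FPKM and that at chr11:79329682-79329754 756 and 222 FPKM. In Scr LNA HFD the same features had 707, 5438, 80.2 and 2981 FPKM. They thus also differed widely between the Scr LNA groups, which ate different diets.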

How the data were processed

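The authors depleted rRNA, prepared strand-specific libraries and, per the labels and methods, used Bowtie2 2.2.9 to remove residual rRNA reads, STAR 2.6.0c for alignment (genome build GRCm38, also named mm10), Cufflinks 2.2.1 for transcript assembly and Cuffdiff to compare groups. The deposited FPKM values were computed by the authors, who pooled 4 livers into 1 value per group. The deposited tables also hold the authors' log2 fold changes, test statistics, p values and q values, which were not used. Of the features, 61548 matched 49007 Ensembl genes and 8357 did not. Tables were joined by feature number, and where a gene had several features that of highest mean was taken. Features with a mean of at least 1 FPKM and both values above 0 were kept, with no pseudocount. Members and lists were chosen with earlier results of these data known. Named genes were LincIRS2, Irs2, Irs1 and the L-DIO-lncRNAs, the 12 protein-coding genes of largest and of smallest ratio, the 8 of each with a mean of at least 20 FPKM, the 4 lncRNA genes of each, up to 4 members past 1.5-fold per list and direction, any member of the insulin signalling, gluconeogenesis and glucose lists, and the 2 unmatched features of each with a mean of at least 20 FPKM. All others, such as Ets1, neighbours of LincIRS2 and further members of lists, were named after their values were seen. Alternatives changed the minimum, the pseudocount, the scaling, the strand and the feature taken per gene. Ratios were computed with Python 3.11.15, pandas 2.3.3 and numpy 2.4.6, and the counting was tested on simulated data.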

Additional observations from a re-analysis of the deposited data

How the results depend on the processing

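Under the alternatives run, the sign of a list median changed for 9 lists, all with medians under 0.1 in size and insulin signalling among them (−0.32 on the own strand), and for none of the other lists. Of the named genes, AW112010 turned to −0.038 when only loci with 1 assembled transcript were used, 9030622O22Rik to 0.78 and 9030616G12Rik to −0.51 on the own strand, and B930025P03Rik, at 0, to −0.02 when centred. The restriction to 1 assembled transcript and the 1 FPKM asked in each group were chosen after seeing the data. Counts of features past 2-fold, 89 higher and 88 lower, moved with the minimum mean, to 173 and 216 at 0.5 FPKM, 29 and 12 at 5 FPKM and 5580 and 5522 without a minimum, since other features were then counted. On the gene's own strand they were 45 and 42 of 2954 features (1.52% and 1.42%), and with 1 assembled transcript 52 and 51 of 5309 (0.979% and 0.961%). Counts of genes past 1.5-fold, 155 higher and 180 lower, moved to 289 and 376, 43 and 34, and 3471 and 3639 under the same minimums, and to 88 and 108 of 4150 genes with 1 assembled transcript. Lower genes were 117 of 2930 on the own strand and 107 with a pseudocount of 1 FPKM. LincIRS2 moved from −0.69 to −0.21 with that pseudocount. Of 249 list values under alternatives 3 moved by more than their limit, and of 251 gene values 4 did, among them Igfbp2 summed over its features. No paired analysis was possible because each group has 1 pooled value, and leaving out a liver was not possible for the same reason. The depth is unknown, so the counting error of features near 1 FPKM could not be given.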
